A study of Mus musculus with 6 samples.

Results

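The genes described here encode lysosomal proteins: 9 membrane proteins, 10 cathepsins and other peptidases, 11 glycosidases, 5 sulfatases, 4 lipid hydrolases and activator proteins, and 12 subunits of the vacuolar proton pump (V-ATPase). They were taken by symbol from a list of 51 names, and all 51 were found among the 54838 genes of the count tables. All 51 also had enough reads to be tested, beside 13601 tested genes in all. RNA was sequenced from B16F10 cells, a pigmented mouse melanoma line, in 6 libraries. The 3 control libraries came from cells given the vehicle DMSO and the 3 others from cells given 10 µM GSK126, an inhibitor of the histone methyltransferase EZH2. How long the cells were treated is not stated, and neither is whether replicates were separate cultures. The p-values below therefore set the difference between groups only against sample-to-sample spread, part or all of which may be technical. They may be too small if the replicates were not separate cultures.

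Lysosomes are the acid compartments in which cells break down proteins, glycans, glycosaminoglycans and lipids. The V-ATPase pumps protons into them, a set of membrane proteins guards and vents the compartment, and hydrolases made in the endoplasmic reticulum are delivered there, mostly with a mannose 6-phosphate tag. Many of these genes are under control of TFEB, TFE3 and MITF, related transcription factors that bind sequences with the core CACGTG, and melanosomes, the pigment granules of these cells, are related to lysosomes and hold several of the same proteins.

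Counts summed over genes ran from 13594939 to 14713373 per library. Ezh2, which encodes the inhibited enzyme, averaged 189 ± 4.84 CPM (read counts scaled to library size) in DMSO samples and 193 ± 3.47 CPM in GSK126 samples (SD, n = 3). A drug acting on the protein need not move its transcript, so this level checks no label. Of 11 melanocytic genes, Mitf, Sox10, Tyr, Tyrp1, Dct, Pmel, Mlana and Slc45a2 had between 4206 and 122625 reads in every library. The others were lower, with 2361 to 2617 reads for Mc1r, 481 to 851 for Gpr143 and 551 to 728 for Oca2. Macrophages are rich in lysosomes, and of 10 macrophage and leukocyte markers 6 had 0 reads in every library and none had more than 14 reads in any. Their summed level was 0.0711 to 0.370 CPM with DMSO and 0.272 to 1.67 CPM with GSK126. Among 8 fibroblast and endothelial markers, 2 had 0 reads in every library, and Col1a2 had the most, with 221 to 312 reads per library. None of 4 keratinocyte markers had more than 2 reads in any library. GSK126 replicate 3 lay away from the other GSK126 samples along principal component 2, which held 18.8% of the variance. The median of 73 ribosomal protein genes lay 0.219 below the other GSK126 samples there on the log2 scale (-0.219), whereas the median of the lysosomal genes differed by -0.0299.

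With GSK126, 12 of the 51 lysosomal genes rose and 0 fell, while 39 did not pass the test (quasi-likelihood test of edgeR, p below 0.05 after Benjamini-Hochberg adjustment over all tested genes). Over all tested genes 11.1% were called, 5.87% of them higher and 5.18% lower, against 23.5% of the lysosomal genes, all of these higher. At an unadjusted p below 0.05, 27 lysosomal genes were higher and 0 lower by edgeR, against 1955 and 1780 of all 13601 tested genes. DESeq2 called 10 higher and 0 lower (746 and 654 over all tested genes). For limma on the FPKM values it was 13 higher and 0 lower (710 and 645 over all tested genes). The rises were small. Among the 12 genes the fold change ran from 1.11 for Ctsd to 1.62 for Neu1. The median log2 fold change over all 51 genes was 0.13, against -0.00048 over all tested genes. Of the 51 estimates 43 were above 0, against 6791 of all 13601. Of the 39 genes that did not pass, 31 estimates were above 0 and 8 below.

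The DMSO and GSK126 samples did not overlap for 29 of the 51 genes, with GSK126 above DMSO for 27 and below for 2. Over all tested genes, 34.4% did not overlap, with 17.6% above and 16.8% below. Summed over the 51 genes, the level was 10532 to 10822 CPM in the DMSO samples and 11686 to 11689 CPM in the GSK126 samples, a difference of 9.82%. The 12 genes that rose made up 53.9% of that difference. In bulk RNA, a higher level per cell cannot be told apart from a larger share of cells with a high level.

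**Figure D1:**
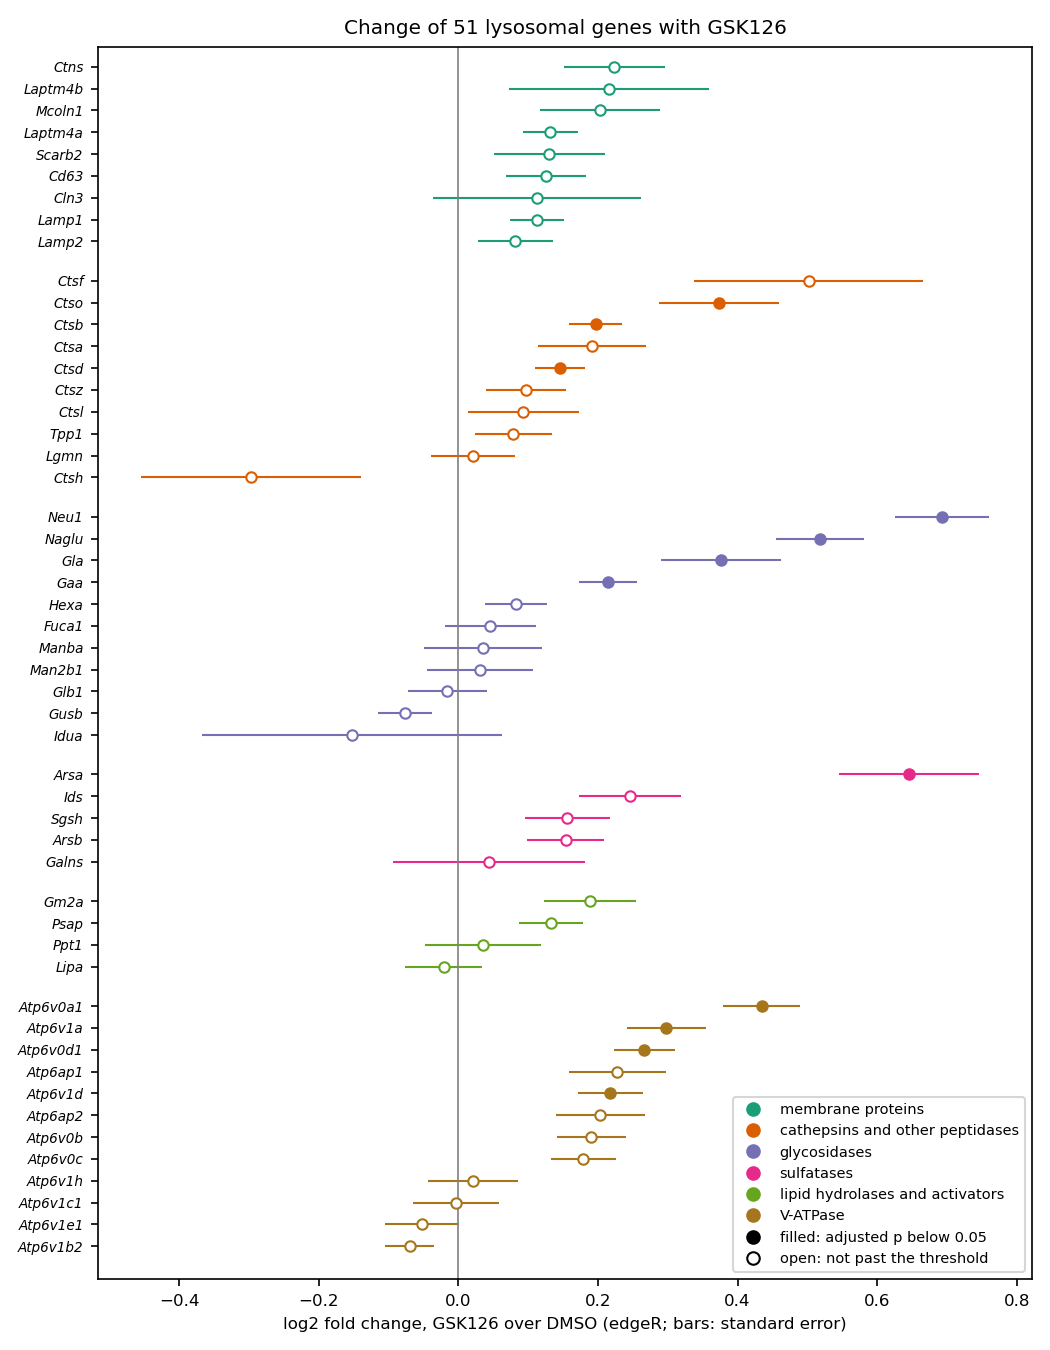
Log2 fold change of each of the 51 lysosomal genes (GSK126 over DMSO, x axis) with its standard error, by subgroup; filled points passed an adjusted p of 0.05. The estimates run from -0.30 for Ctsh to 0.69 for Neu1, the 12 filled points are all above 0, and all 9 membrane protein genes sit above 0 with open points (Cd63 would be at -0.01 with its pseudogene, and Cln3 at -0.0096 without DMSO replicate 3).

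Of the 12 calls, those of Neu1, Naglu, Arsa and Atp6v0a1 were kept under every one of 13 other settings, which comprised other normalisations, tools and filters, a replicate block and each library left out. The other 8 calls ended when single libraries were left out, and they are given below with those libraries. Leaving out DMSO replicate 1 or DMSO replicate 2 left 4 lysosomal genes called higher, and leaving out DMSO replicate 3 left 5. Among the treated libraries, the count was 6 when the first was left out, 7 for the second and 12 for the third. Over all tested genes the number called higher also dropped, from 798 to between 279 and 640.

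**Figure D2:**
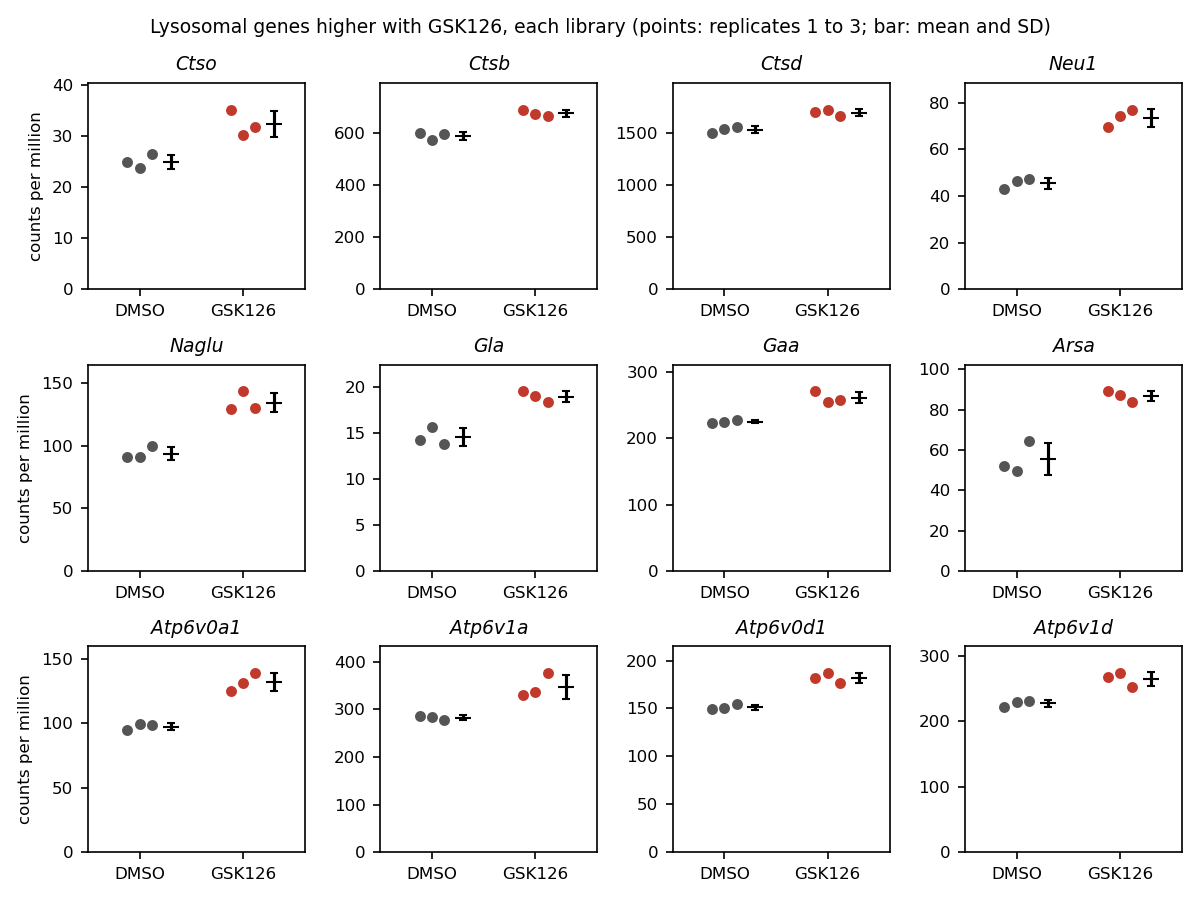
CPM (y axis, from 0) of the 12 lysosomal genes that rose, in the DMSO (grey) and GSK126 (red) libraries, with mean and SD beside the points. The lowest GSK126 point lies above the highest DMSO point in each of the 12 panels, and the fold change is largest for Neu1 and Arsa.

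Among the glycosidases, which remove sugars from glycoproteins, glycolipids and glycosaminoglycans, 4 of 11 rose and 0 fell (0 also at an unadjusted p below 0.05 by edgeR, and 3 higher and 0 lower by DESeq2). The median log2 fold change was 0.046, and it moved to 0.0786 when DMSO replicate 3 was dropped, to 0.0829 when GSK126 replicate 1 was, and to 0.0938 when GSK126 replicate 3 was. The group held the largest rise of the list beside 7 genes that did not pass. Over all tested genes 5.87% were called higher and 5.18% lower. Neu1 (GRCm38 chromosome 17, 34931253 to 34935953) encodes the sialidase that works in a complex with cathepsin A and beta-galactosidase. It stood at 42.9, 46.2 and 47.1 CPM in the DMSO samples and 69.4, 74.0 and 76.8 CPM in the GSK126 samples. All GSK126 samples were far above all DMSO samples, and the fold change was 1.62 (log2 0.69, SE 0.07, edgeR adjusted p = 0.00165). The other members of that complex did not pass the test. Ctsa had a log2 fold change of 0.19 (SE 0.08) and Glb1 one of -0.02 (SE 0.06).

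Naglu (chromosome 11, 101070012 to 101077672) encodes an N-acetylglucosaminidase of heparan sulfate breakdown. Its level was 91.0, 90.7 and 99.4 CPM with DMSO and 129, 143 and 130 CPM with GSK126. The groups were well apart, with a fold change of 1.43 (log2 0.52, SE 0.06, edgeR adjusted p = 0.00427). Gla, the alpha-galactosidase whose loss causes Fabry disease, was at a low level of 14.3, 15.7 and 13.9 CPM with DMSO and 19.5, 19.0 and 18.3 CPM with GSK126 (log2 estimate 0.38, SE 0.09, edgeR adjusted p = 0.0345). Dropping any 1 of the 6 libraries ended its call (edgeR adjusted p as high as 0.114) and with DESeq2 (adjusted p = 0.0692).

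Gaa, the acid alpha-glucosidase that degrades glycogen in the lysosome, was at 222, 225 and 227 CPM with DMSO and 270, 255 and 257 CPM with GSK126. Both groups were tight and the rise was 1.16-fold (log2 0.21, SE 0.04, edgeR adjusted p = 0.0207). The call ended without any 1 of the DMSO libraries or without GSK126 replicate 1 (edgeR adjusted p as high as 0.0885). Hexa, which encodes the alpha chain of beta-hexosaminidase, was the glycosidase gene with the highest level per length, at 290 FPKM on average over the 6 libraries. Its CPM values were 540, 567 and 582 with DMSO and 596, 614 and 579 with GSK126, and the groups overlapped (log2 estimate 0.08, SE 0.04, edgeR adjusted p = 0.280).

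The other 6 glycosidase genes had log2 fold changes from -0.15 (Idua, SE 0.22) to 0.05 (Fuca1, SE 0.07). Gusb, the beta-glucuronidase, was the only one of them with groups that did not overlap. It was lower with GSK126, at 225, 223 and 232 CPM against 240, 237 and 240 CPM with DMSO, and did not pass the test (log2 estimate -0.08, SE 0.04, edgeR adjusted p = 0.253). Manba and Man2b1, which remove mannose residues, had estimates of 0.04 (SE 0.08) and 0.03 (SE 0.08). Idua shares 124 bp of exons with the opposite-strand gene Dgkq and Glb1 165 bp with Tmppe, so part of their reads is uncertain.

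Of the 5 sulfatase genes, whose products remove sulfate from glycolipids and glycosaminoglycans, Arsa rose and 0 fell (0 also at an unadjusted p below 0.05 by edgeR, and 1 higher and 0 lower by DESeq2). The share called higher over all tested genes was 5.87%. All 5 estimates were above 0, with a median log2 fold change of 0.16, though Galns turned to -0.07 without DMSO replicate 1. Arsa (chromosome 15, 89472476 to 89477425) encodes arylsulfatase A, the sulfatide-degrading enzyme that is lacking in metachromatic leukodystrophy. It was at 51.9, 49.8 and 64.6 CPM with DMSO and 89.1, 87.1 and 84.0 CPM with GSK126. DMSO replicate 3 lay above the other DMSO samples but below every GSK126 sample, and the fold change was 1.56 (log2 0.65, SE 0.10, edgeR adjusted p = 0.0100).

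Arsb had the highest level per length of the sulfatase genes, at 22.1 FPKM. Its CPM values were 128, 133 and 143 with DMSO and 148, 146 and 155 with GSK126, which did not overlap but did not pass (log2 estimate 0.15, SE 0.06, edgeR adjusted p = 0.121). Ids, the iduronate sulfatase, and Sgsh, the heparan sulfamidase, likewise had groups that did not overlap without passing the test (0.25, SE 0.07, and 0.16, SE 0.06). Galns, at 7.64 to 10.52 CPM with DMSO, had overlapping groups (0.04, SE 0.14). Sgsh shares 955 bp of exons with Card14 on the opposite strand, which had 53.8% as many reads and a log2 fold change of 0.38 (SE 0.09), so the source of part of the Sgsh reads is uncertain.

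Cathepsins and related peptidases cut proteins inside the lysosome, and 3 of these 10 genes rose while 0 fell (0 also at an unadjusted p below 0.05 by edgeR, and 2 higher and 0 lower by DESeq2). The all-gene shares were 5.87% called higher and 5.18% lower. The median log2 fold change of the peptidase genes was 0.12. Ctsd (chromosome 7, 142375911 to 142388038), the aspartic protease cathepsin D, had the highest level per length of all 51 genes at 447 FPKM. It stood at 1496, 1543 and 1559 CPM with DMSO and 1705, 1721 and 1659 CPM with GSK126. This rise was the smallest among the 12 called genes as a ratio, 1.11-fold (log2 0.15, SE 0.04, edgeR adjusted p = 0.0449), and the largest in CPM, at 163. The call ended without any 1 library other than GSK126 replicate 3 (edgeR adjusted p as high as 0.149), and it was not made by DESeq2 (adjusted p = 0.0894) or by limma on FPKM (adjusted p = 0.104).

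Ctsb, the cysteine protease cathepsin B, was at 599, 572 and 598 CPM with DMSO and 689, 674 and 664 CPM with GSK126. The groups were apart by several SD, with a log2 fold change of 0.20 (SE 0.04, edgeR adjusted p = 0.0207). Ctso, the cysteine protease cathepsin O, was at 24.8, 23.7 and 26.5 CPM with DMSO and 35.1, 30.2 and 31.9 CPM with GSK126 (0.37, SE 0.09, edgeR adjusted p = 0.0357). Ctsb shares 774 bp of exons with Fdft1 on the opposite strand, which had 9.0% as many reads and was itself higher (0.72, SE 0.17, edgeR adjusted p = 0.0364). The Ctsb call ended without any 1 library other than GSK126 replicate 3 (edgeR adjusted p as high as 0.0927) and the Ctso call without any 1 of the 6 (up to 0.118).

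Ctsf had the largest estimate of the peptidases, but at a low level of 2.35 to 2.72 CPM with DMSO and 3.28 to 3.81 CPM with GSK126 it did not pass (0.50, SE 0.16, edgeR adjusted p = 0.0964). Ctsh, an aminopeptidase which averaged 9.86 ± 1.73 CPM in DMSO samples and 8.02 ± 0.808 CPM in GSK126 samples (SD, n = 3), had the lowest estimate of all 51 genes (-0.30, SE 0.16), and its groups overlapped. Ctsz, Ctsl, the tripeptidyl peptidase gene Tpp1 and the asparaginyl endopeptidase gene Lgmn had estimates from 0.02 (Lgmn) to 0.10 (Ctsz), all with overlapping groups. Of the peptidase genes, those of an aspartic protease and 2 cysteine proteases passed, and those of other cysteine proteases did not. None of these calls was kept when any 1 of the DMSO libraries was left out.

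None of the 4 genes of lipid breakdown passed the edgeR test, and 2 were higher and 0 lower at an unadjusted p below 0.05 by edgeR (1 and 0 by DESeq2, where 0 passed after adjustment). By edgeR, 1955 of all 13601 tested genes were higher and 1780 lower at that unadjusted threshold. Psap encodes prosaposin, the precursor of the saposins that present sphingolipids to their hydrolases. It was the most highly expressed of them per length, at 214 FPKM, and stood at 812, 799 and 836 CPM with DMSO and 926, 910 and 847 CPM with GSK126. Its groups did not overlap, though GSK126 replicate 3 came close to the DMSO range (log2 estimate 0.13, SE 0.05, edgeR adjusted p = 0.109). Without GSK126 replicate 3 Psap passed (0.17, adjusted p = 0.0309). Gm2a, the GM2 ganglioside activator, had an estimate of 0.19 (SE 0.07). The acid lipase gene Lipa (-0.02, SE 0.06) and the thioesterase gene Ppt1 (0.04, SE 0.08) had overlapping groups, and Ppt1 shares 129 bp of exons with Cap1, which had more reads.

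The 9 membrane protein genes all had positive estimates in a narrow range, from 0.08 to 0.22 with a median of 0.13, except that Cd63 turned to -0.01 once reads of its pseudogene were added and Cln3 to -0.0096 without DMSO replicate 3. None passed by edgeR or DESeq2. At an unadjusted p below 0.05, 4 were higher and 0 lower by edgeR, against 1955 and 1780 of all 13601 tested genes. Lamp1, a heavily glycosylated protein that lines the lysosomal membrane, had the highest level per length of them, at 238 FPKM. It stood at 636, 661 and 660 CPM with DMSO and 689, 702 and 725 CPM with GSK126. These groups did not overlap, but the difference did not pass over all genes (log2 estimate 0.11, SE 0.04, edgeR adjusted p = 0.110). Lamp2, which is also needed for autophagy, had overlapping groups (0.08, SE 0.05).

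The transporters and channels of this group were expressed at lower levels. Ctns, the cystine exporter, had an estimate of 0.22 (SE 0.07) and Mcoln1, the calcium channel TRPML1, one of 0.20 (SE 0.09), both with groups that did not overlap. Laptm4a, a small transmembrane protein of late endosomes, was at 387, 383 and 395 CPM with DMSO and 435, 429 and 412 CPM with GSK126 (0.13, SE 0.04, edgeR adjusted p = 0.0775). It passed without GSK126 replicate 3 (adjusted p = 0.0415). For its relative Laptm4b, DMSO replicate 3 was low at 144 CPM, against 216 and 212 CPM in the other DMSO samples and 218 to 227 CPM with GSK126. The estimate for Laptm4b was 0.22 (SE 0.14) with that library and 0.05 without it. Scarb2, the receptor that carries glucocerebrosidase to lysosomes, and Cln3, the gene of juvenile Batten disease, had overlapping groups. Cln3 had the lowest deposited FPKM of the 51 genes, at 0.655, and shares 442 bp of exons with Apobr.

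Cd63, a tetraspanin of lysosomes and melanosomes, was uncertain because an annotated pseudogene, Cd63-ps, held 18.7% as many reads. Cd63 had an estimate of 0.13 (SE 0.06, edgeR adjusted p = 0.205). Cd63-ps dropped to 21.8 CPM in GSK126 replicate 2, against 126 to 190 CPM in the other 5 libraries. With both rows summed, the levels were 917, 907 and 956 CPM with DMSO and 984, 777 and 991 CPM with GSK126. The summed groups overlapped and the estimate was -0.01 (SE 0.09), so no direction can be given for Cd63.

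The V-ATPase is built from a V1 domain, which hydrolyses ATP in the cytosol, and a membrane-embedded V0 domain, which carries the protons. Of its 12 genes 4 rose and 0 fell (0 also at an unadjusted p below 0.05 by edgeR, and 4 higher and 0 lower by DESeq2), with a median log2 fold change of 0.20. In the V0 domain 2 of 4 genes rose, and all 4 had groups that did not overlap, with a median of 0.23. Summed CPM of those 4 was 566.5 to 578.6 with DMSO and 674.2 to 694.8 with GSK126. In the V1 domain 2 of 6 genes rose and the median was 0.01. Summed CPM of those 6 did not overlap either, at 1394 to 1426 with DMSO and 1470 to 1507 with GSK126. Over all tested genes 5.87% were called higher, and GSK126 lay above DMSO without overlap for 17.6%. No test compared the domains.

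Atp6v0a1 (chromosome 11, 101009452 to 101063719), the a1 subunit that forms part of the proton path, had the largest rise of the pump. It was at 94.4, 99.5 and 98.5 CPM with DMSO and 125, 131 and 139 CPM with GSK126, 1.35-fold higher with groups well apart (log2 0.43, SE 0.05, edgeR adjusted p = 0.00487). Atp6v0d1, the d1 subunit in the stalk between the domains, had the highest level per length of the pump genes at 78.1 FPKM. It was at 149, 150 and 154 CPM with DMSO and 182, 187 and 177 CPM with GSK126 (0.27, SE 0.04, edgeR adjusted p = 0.0117). Dropping DMSO replicate 1 or DMSO replicate 2 ended this call (edgeR adjusted p as high as 0.0617).

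The genes of the proton-carrying ring lay just outside the threshold. Atp6v0b was at 114, 111 and 106 CPM with DMSO and 131, 123 and 125 CPM with GSK126 (0.19, SE 0.05, edgeR adjusted p = 0.0519). Atp6v0c was at 209, 215 and 219 CPM with DMSO and 237, 237 and 254 CPM with GSK126 (0.18, SE 0.05, edgeR adjusted p = 0.0530). Reads of Atp6v0c are uncertain, because the pseudogene Atp6v0c-ps2 held 71.4% as many and rose itself (0.22, SE 0.05). With both rows summed, Atp6v0c passed (0.20, SE 0.04, edgeR adjusted p = 0.0251).

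In the V1 domain, Atp6v1a, the catalytic A subunit, was at 287, 284 and 278 CPM with DMSO and 330, 337 and 376 CPM with GSK126. The GSK126 samples were more spread than the DMSO samples but all higher (0.30, SE 0.06, edgeR adjusted p = 0.0197). Atp6v1d, part of the central rotor, was at 222, 229 and 232 CPM with DMSO and 267, 274 and 252 CPM with GSK126 (0.22, SE 0.05, edgeR adjusted p = 0.0287). The Atp6v1a call ended without any 1 of the DMSO libraries (edgeR adjusted p as high as 0.0751) and the Atp6v1d call without any 1 library other than GSK126 replicate 3 (up to 0.111).

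The partner of the A subunit in the catalytic ring did not follow it. Atp6v1b2, the B subunit, was at 326, 327 and 325 CPM with DMSO and 309, 314 and 309 CPM with GSK126, lower in every GSK126 sample without passing the test (-0.07, SE 0.04, edgeR adjusted p = 0.252). The genes of the stator and its regulators, Atp6v1e1 (-0.05, SE 0.05), Atp6v1c1 (-0.0026, SE 0.06) and Atp6v1h (0.02, SE 0.06), had overlapping groups. The accessory proteins Atp6ap1 and Atp6ap2, which help assemble the pump, were higher in every GSK126 sample without passing (0.23, SE 0.07, and 0.20, SE 0.06). Thus subunits that occur together in 1 complex had estimates from -0.07 to 0.43.

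**Figure D3:**
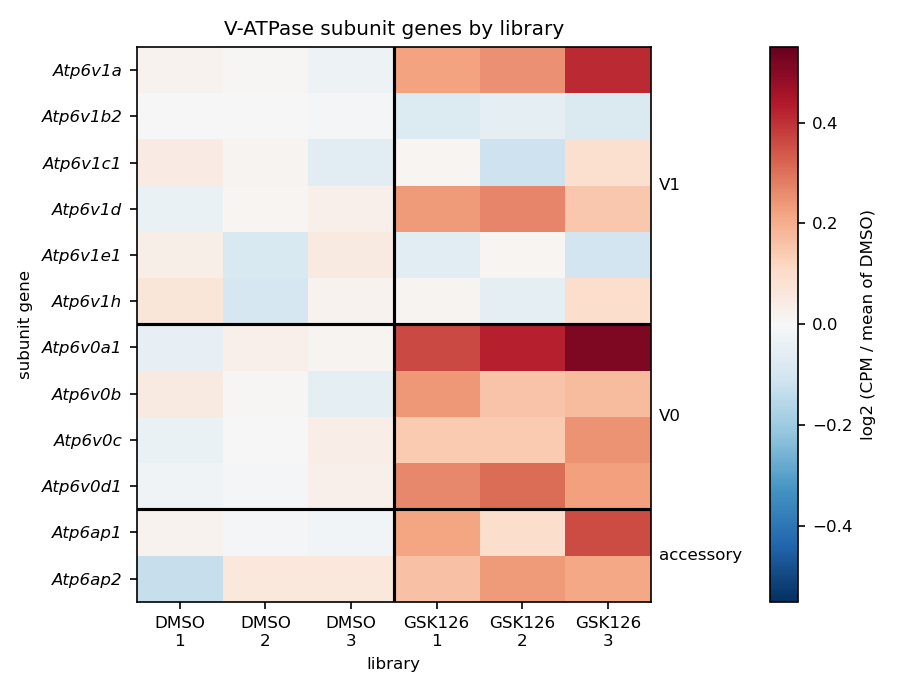
Level of each V-ATPase gene (rows, grouped into the V1 domain, the V0 domain and accessory proteins) in each library (columns), as log2 of CPM over the mean of the DMSO samples. All 4 V0 rows are red in all 3 GSK126 columns, Atp6v0a1 most of all, whereas the V1 rows for Atp6v1b2, Atp6v1c1, Atp6v1e1 and Atp6v1h stay pale.

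Summed by subgroup, the GSK126 samples lay above the DMSO samples without overlap in all 6, as long as pseudogene reads were left out. The sum of the sulfatase genes differed most as a ratio, at 280 to 308 CPM with DMSO and 346 to 361 CPM with GSK126, 20.99% higher on average. Arsa made up 31.3 CPM of that difference of 60.97 CPM, and the other 4 sulfatase genes, summed after these values were seen, differed by 12.63%. The other 5 subgroups differed by 7.51% (lipid hydrolases and activators) to 10.48% (cathepsins and other peptidases). With the pseudogene reads added, the membrane protein sums overlapped, at 2691.7 to 2720.5 CPM with DMSO and 2686.7 to 2972.9 CPM with GSK126, whereas the V-ATPase sums and those of all 51 genes still did not.

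**Figure D4:**
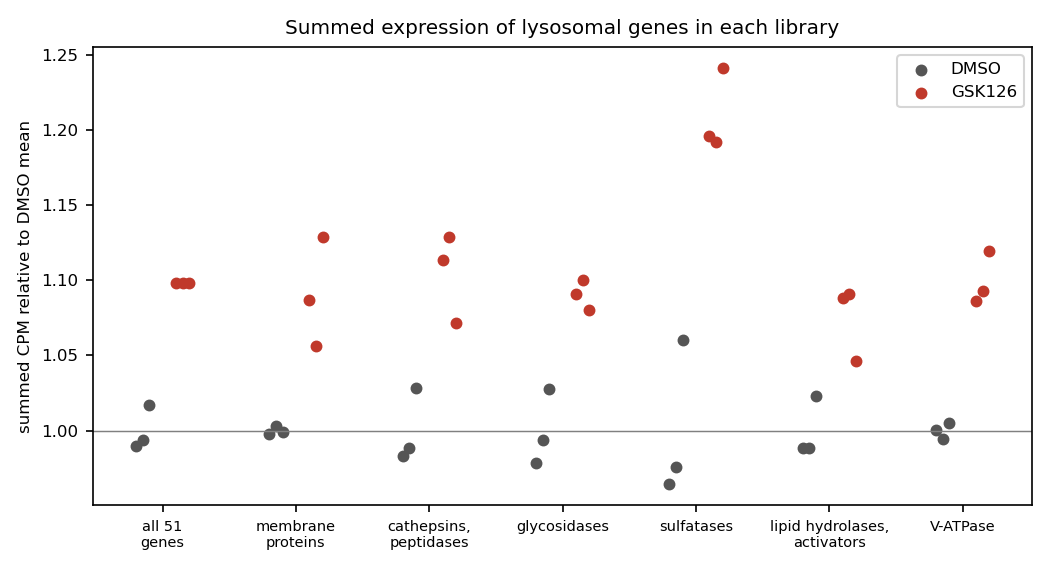
Summed CPM of all 51 lysosomal genes and of each subgroup in each library (points), divided by the mean of the DMSO samples (y axis). Without pseudogene reads, the 3 GSK126 points lie above the 3 DMSO points in every column, and the sulfatases show the widest gap at 20.99%.

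Levels per length spanned from 0.655 FPKM for Cln3 to 447 FPKM for Ctsd, with a median of 22.1 FPKM against 5.02 FPKM over all tested genes. After Ctsd came Hexa (290 FPKM), Lamp1 (238), Laptm4a (229), Ctsz (217) and Psap (214), and from Lamp1 to Psap the per-sample ranges of neighbours in this order overlapped. The length behind the deposited FPKM values is not the exon length of GENCODE M21 for many genes. Dividing CPM by the M21 exon length instead kept Ctsd first, put Psap second and put Ctsf last in place of Cln3. The 12 genes that rose covered levels from 4.95 FPKM (Ctso) to 447 FPKM, so they were not limited to abundant or rare transcripts.

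**Figure D5:**
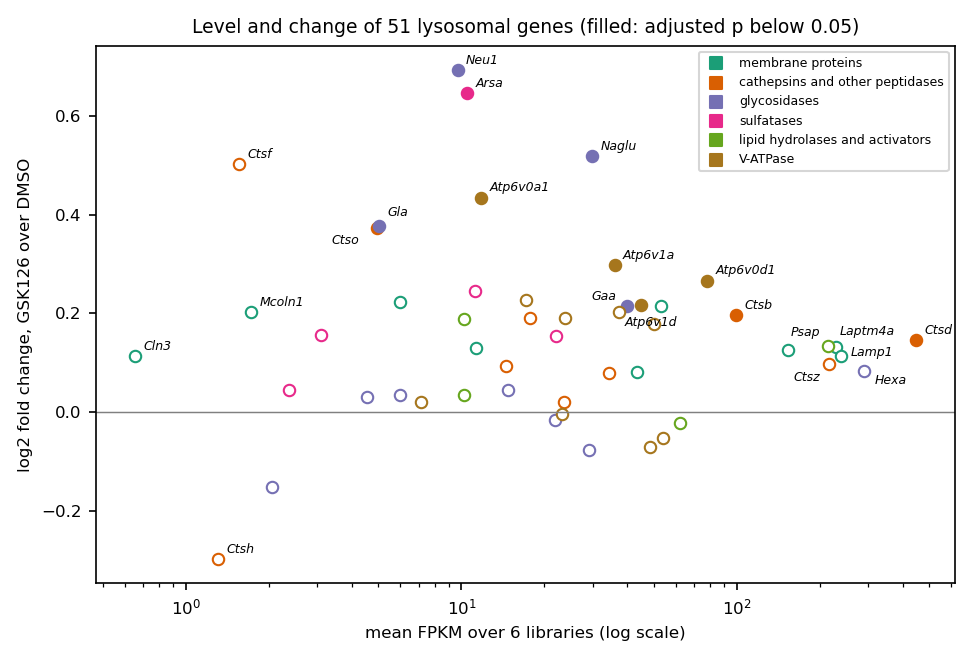
Mean FPKM over the 6 libraries (x axis, log scale) against log2 fold change (y axis) for the 51 lysosomal genes, coloured by subgroup and filled where the adjusted p was below 0.05. The 2 largest rises, Neu1 and Arsa, lie near 10 FPKM, while the most abundant gene, Ctsd, changed by 0.15.

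The promoters of these genes were read for the letters CACGTG, the core bound by TFEB, TFE3 and MITF, because the genes moved in 1 direction. RefSeq promoters (build GRCm38.p6, 250 bases before to 50 after each start) were at hand for 44 of the 51 genes. CACGTG reads the same on both strands. It was found in 17 of the 44 genes (38.6%), against 1147 of the 9579 tested genes with a promoter in the table and 8.09% of all 27025 genes. Of the 11 genes that rose and had a promoter, 7 held it (63.6%), and of the 33 others 10 did (30.3%). The longer TCACGTGA, which contains CACGTG, was in 7 of the 44 genes (15.9%) and 2.27% of tested genes. The CLEAR palindrome, which extends it by 1 base on each side, was in Cln3 alone, against 0.835% of tested genes. Searched on both strands as well, CATGTG was in 20.5% of the 44 genes and 960 of the 9579 tested genes, and the GC box GGGCGG in 68.2% and 70.2%. Split into the 11 genes that rose and the 33 others, TCACGTGA was in 36.4% and 9.09%, and the CLEAR palindrome in 0% and 3.03%. CATGTG was in 18.2% and 21.2%, and GGGCGG in 63.6% and 69.7%. No test compared these shares. Of the genes that rose and held CACGTG, only the calls of Naglu and Arsa were kept under every setting. Such matches are a description of letters, not of binding. The stretches around CACGTG nearest the start are shown for genes that rose, 5′ to 3′ on the gene's strand, with CACGTG in capitals.
Naglu: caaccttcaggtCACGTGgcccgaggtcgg
Gla: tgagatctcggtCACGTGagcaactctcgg
Gaa: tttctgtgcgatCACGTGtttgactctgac
Arsa: tcaactcagtgtCACGTGttgtctgctc
Ctsd: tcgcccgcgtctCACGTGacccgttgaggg
Atp6v1a: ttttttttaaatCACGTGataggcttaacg

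These lie at chr11:101070009-101070038 (plus strand) for Naglu, chrX:134601182-134601211 (minus) for Gla, chr11:119267811-119267840 (plus) for Gaa, chr15:89477425-89477452 (minus) for Arsa, chr7:142387908-142387937 (minus) for Ctsd and chr16:44139373-44139402 (minus) for Atp6v1a. The first base of CACGTG was at position -16 from the RefSeq start for Arsa, -73 for Naglu, -98 for Ctsd, -131 for Atp6v1a, -140 for Gaa and -194 for Gla. These starts differ from the gene ends given above, and CACGTG of Naglu and of Ctsd lies inside those gene coordinates. That of Atp6v1a also lies inside its gene (chromosome 16, 44085402 to 44139705). GENCODE M21 exons of any gene covered 27 of the 30 printed bases for Naglu and 30 of 30 for Gla and for Ctsd. They covered 1 of 28 for Arsa and 0 for Gaa and Atp6v1a. In Atp6v0d1 the match spans the start site itself. No CACGTG was in the windows of Neu1, Atp6v0a1, Ctso and Atp6v1d, which also rose. The Atp6v0a1 window, 101010148 to 101010447, lies inside the gene, which begins at 101009452. The bases before that first position were therefore not read.

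The densest set of matches belonged to Lamp1, which did not pass the test. Its promoter held 4 copies within 68 bases before the start, at chr8:13159092-13159159 (plus strand). It is shown beside the stretches of Mcoln1 (chr8:3500462-3500491, plus) and Cln3 (chr7:126583340-126583369, minus), further membrane protein genes that did not pass, to set them against those of the genes that rose. GENCODE M21 exons covered 30 of 30 bases of the Mcoln1 and Cln3 stretches and 0 of the Lamp1 stretch. The Cln3 match is in a window at 126583187-126583486, inside the gene (126571207 to 126585817). Its window at the 5′ end of the gene held no CACGTG.
Lamp1: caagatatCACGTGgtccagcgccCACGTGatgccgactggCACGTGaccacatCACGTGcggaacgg
Mcoln1: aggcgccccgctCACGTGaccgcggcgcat
Cln3: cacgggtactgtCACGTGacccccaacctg

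Of the factors themselves, only Mitf rose, with 650 ± 33.1 CPM in DMSO samples and 983 ± 30.5 CPM in GSK126 samples (SD, n = 3; estimate 0.60, SE 0.05, edgeR adjusted p = 0.00101). Tfeb (14.3 ± 1.53 and 15.5 ± 2.08 CPM) and Tfe3 (59.4 ± 3.97 and 59.6 ± 5.99 CPM) did not pass, and Tfec had too few reads to test. Of 21 tested genes of these factors and of mTORC1 control at the lysosome, 2 rose (9.52%, against 5.87% called higher over all tested genes). None of them fell (0 also at an unadjusted p below 0.05 by edgeR), and the median log2 fold change was 0.06. Beside Mitf, the gene that rose was Tsc1, an inhibitor of mTORC1 signalling (0.29, SE 0.06). Of the 11 melanocytic genes, Mitf among them, 4 were called higher (36.4%) and 1 lower (9.09%), against 5.87% and 5.18% over all tested genes. The median log2 fold change of those 11 was 0.15.

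Lysosomal genes outside the 51 gave a similar count for enzymes and a mixed one for transport. Of 21 other tested lysosomal enzymes 5 rose (23.8%, against 5.87% called higher over all tested genes). None fell (0 also at an unadjusted p below 0.05 by edgeR, and 5 higher and 0 lower by DESeq2), and the median was 0.11. Those that rose were led by the acid sphingomyelinase gene Smpd1, at 97.1 to 99.1 CPM with DMSO and 170 to 176 CPM with GSK126 (0.82, SE 0.04), which exceeded every one of the 51. The phospholipase gene Pla2g15 (0.47, SE 0.09) and the peptidase gene Ctsc (0.37, SE 0.07) followed. Of 21 other lysosomal membrane and transport genes, 3 rose (14.3%) and 2 fell (9.52%), against 5.87% and 5.18% over all tested genes. Slc17a5, the sialic acid exporter, went from 32.0 ± 1.05 to 21.2 ± 1.27 CPM (SD, n = 3; -0.59, SE 0.08), opposite in direction to Neu1, whose product releases sialic acid. Mcoln2, a relative of Mcoln1, also fell (-0.44, SE 0.09), and Npc1, the cholesterol exporter, rose (0.30, SE 0.05).

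Of 15 other tested V-ATPase genes and assembly factors, only Atp6v0e2 rose (0.24, SE 0.05) and 0 fell (1 lower at an unadjusted p below 0.05 by edgeR). That is 6.67% called, all higher, against 11.1% of all tested genes called, of which 5.87% higher. Among 14 genes that tag and sort hydrolases, 1 rose and 1 fell (14.3% called, against the same 11.1%). Sort1, the receptor sortilin, went from 558 ± 5.43 to 689 ± 32.4 CPM (0.30, SE 0.04), and M6pr, the cation-dependent mannose 6-phosphate receptor, from 261 ± 1.11 to 225 ± 10.3 CPM (SD, n = 3; -0.21, SE 0.05). None of 25 autophagy genes passed the edgeR test, against 11.1% called over all tested genes. At an unadjusted p below 0.05 by edgeR, 5 were higher and 1 lower, against 1955 and 1780 of all 13601 tested genes. DESeq2 called 1 of the 25 higher, against 746 over all tested genes. The median log2 fold change of the autophagy genes was 0.10.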

How the data were processed

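RNA-seq of 6 B16F10 libraries (3 DMSO, 3 GSK126) was processed by the authors with tools that include CASAVA (1.8) for base calls and the aligner HISAT2, on build GRCm38.p4 (mm10), per the submitters' processing notes. Unnormalised counts of reads for each gene were deposited, and FPKM values of the same libraries were deposited beside them. The FPKM values were proportional to count over library total within each gene (ratios from 0.999994 to 1.000006 over 10025 genes with at least 100 reads in each library). No source used here gives the counting tool, strand setting or annotation, so reads of overlapping or antisense genes cannot be told apart. An exon partner was one with at least 10% as many reads in GENCODE M21. This held for 6 of the 51 genes and for 0 of the 12 that rose.

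Counts were fitted in R 4.3.3 with edgeR 4.0.16 (filterByExpr, TMM, quasi-likelihood test, group as the only term), with Benjamini-Hochberg adjustment over 13601 genes at 0.05. CPM use TMM-scaled library sizes. The median SE of the log2 fold change over the 51 genes was 0.06. DESeq2 1.42.0 and limma 3.58.1 on log2(FPKM + 1) were alternatives. Replicates of a group differed by 7.51 to 14.2 times counting noise in a chi-square statistic per gene. Values per sample are given for called genes, for the gene of each subgroup with the highest FPKM, and for some others chosen after their values were seen. The genes and lists were chosen with earlier results of these data known, so no list was tested as a whole. Limp2 and Tmem55b, older names in the lists, matched no row.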

Additional observations from a re-analysis of the deposited data

How the results depend on the processing

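The median log2 fold change of the 51 genes ran from 0.128 to 0.151 with 1 library left out, and that of the membrane proteins from 0.124 to 0.167, of the peptidases from 0.0935 to 0.155, of the glycosidases from 0.0517 to 0.0938, of the sulfatases from 0.134 to 0.196, of the lipid hydrolases from 0.0625 to 0.112 and of the V-ATPase from 0.178 to 0.208. With 1 library left out, the number called higher was 4 to 12 of all 51, 0 to 1 membrane proteins, 0 to 2 peptidases, 2 to 3 glycosidases, 0 to 1 lipid hydrolases and 1 to 4 V-ATPase genes, and 0 genes were called lower in any. Of the 12 genes that rose, 4 to 10 were still called then.

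The labels number the replicates 1 to 3 in both groups, but same-numbered samples did not deviate together (correlations 0.0149, 0.0145 and -0.0611), so the numbers are not taken to pair samples. With a replicate block, 4 of the 51 genes were called higher (0 peptidases, 2 glycosidases and 1 V-ATPase gene), and over all genes 230 were called higher and 178 lower, against 798 and 705 without the block. Over the other 5 planned settings, 9 to 13 of the 51 genes were called higher. Without a filter on low counts 463 genes were called higher over all, and the edgeR adjusted p became 0.0563 for Gla, 0.0675 for Ctso and 0.0545 for Atp6v1d. With upper-quartile scaling it became 0.0584 for Ctsd. Adding pseudogene reads, a setting chosen after seeing the data, gave 13. The sign of the estimate changed under at least 1 setting for 13 of the 51 genes, none of which was called.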

Other observations

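Both Naglu and Atp6v0a1, whose calls were kept under every setting, lie next to each other on the plus strand of chromosome 11, with 6292 bp between them. This was noticed after their values were seen. Within 100 kb of the pair, 2 of 11 other tested genes were called higher and 0 lower by edgeR, against 5.87% and 5.18% over all tested genes. The 2 lie on the Atp6v0a1 side: Stat3, a cytokine-activated transcription factor (mean 55.8 CPM with DMSO and 88.9 CPM with GSK126, log2 estimate 0.67, SE 0.05, edgeR adjusted p = 0.000639), and Cavin1, a coat protein of caveolae (mean 53.5 and 67.0 CPM, 0.32, SE 0.07, edgeR adjusted p = 0.0350). The next gene on the other side, Hsd17b1, had an estimate of 0.08 (SE 0.18), and Coasy, beyond it, one of 0.01 (SE 0.07). None of the 9 tested genes on that side passed. The next closest pair of the 51 genes, Gaa and Sgsh, are 57970 bp apart on opposite strands, and of these Gaa rose and Sgsh did not pass.

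Cd63-ps had 320 reads in GSK126 replicate 2 and 1806 to 2677 in the other libraries, while Cd63 had no such drop there. The sum of both rows was therefore low in that library alone.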
